A study of Mus musculus with 8 samples.

Results

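The genes described here make sterols and fatty acids. They were 35 genes chosen by name, with earlier results of these data known. The 35 genes formed 3 groups: 5 regulators of the pathway, 19 genes of the sterol arm and 11 genes of the fatty acid arm. Of these, 31 had a probe set with their symbol alone, 58 probe sets in all among the 45141 of the table, and Srebf1, Acat2, Pmvk and Scd2 were not analysed here. All 31 had at least 1 probe set above the filter on low values, and 53 of the 58 probe sets passed it.

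The cells were mouse bone marrow cells of strain C57BL/6, immortalized myeloid cells from mice with a Rosa26-Cre-ERT2 knock-in, in which a Cre recombinase is switched on by 4-hydroxytamoxifen. Both groups had been transduced with retroviruses for Hoxa9 and a floxed Meis1, and both grew with 5 ng/ml interleukin-3 and 10% serum. The 4 Meis1 deleted arrays came from cells given 2 µM 4-hydroxytamoxifen to remove the Meis1 cDNA. The 4 Hoxa9 and Meis1 arrays came from untreated cells. The labels used here do not state the age of the mice, the time after treatment or whether arrays came from separate cultures. The p-values therefore rest on the spread among these arrays alone, and that spread may be technical. Only the Meis1 deleted group received the drug, so the loss of Meis1, the drug and Cre activity cannot be told apart.

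Sterol synthesis starts from acetyl-CoA, runs through mevalonate and isoprenoid units to squalene and lanosterol, and ends in cholesterol. Fatty acid synthesis starts from the same acetyl-CoA, and its products are then elongated, desaturated and activated. Both arms are switched on by the SREBP transcription factors, which Scap carries out of the endoplasmic reticulum when sterols are low and which the Insig proteins hold back when sterols are high.

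Because many of these genes moved together, the promoters of 5 of them are shown, from 250 bases before to 1 base before the annotated start, on the gene's strand. They are Hmgcs1, Insig1, Cyp51 and Acss2, which fell, and Mvk, which did not pass the test. The sequences are from RefSeq (GRCm38.p6). Capitals mark matches on either strand to 4 short motifs: TCACNCCAC, a form of the sterol response element that SREBPs bind, the E-box CACGTG, the CCAAT box that NF-Y binds, and the GC box GGGCGG that Sp1 binds. None of the 4 contains another.
Hmgcs1, chr13:119690101-119690350, plus strand: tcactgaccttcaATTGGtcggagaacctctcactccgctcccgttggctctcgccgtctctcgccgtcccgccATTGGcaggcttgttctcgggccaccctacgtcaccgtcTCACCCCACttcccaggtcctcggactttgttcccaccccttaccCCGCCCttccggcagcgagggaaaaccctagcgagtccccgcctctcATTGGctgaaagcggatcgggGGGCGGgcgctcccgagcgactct
Insig1, chr5:28071162-28071411, plus strand: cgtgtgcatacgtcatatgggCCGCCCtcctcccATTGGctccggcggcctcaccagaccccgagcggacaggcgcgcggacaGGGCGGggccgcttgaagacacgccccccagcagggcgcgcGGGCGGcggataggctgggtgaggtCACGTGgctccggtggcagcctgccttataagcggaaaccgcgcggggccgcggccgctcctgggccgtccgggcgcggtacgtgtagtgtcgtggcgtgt
Cyp51, chr5:4104698-4104947, minus strand: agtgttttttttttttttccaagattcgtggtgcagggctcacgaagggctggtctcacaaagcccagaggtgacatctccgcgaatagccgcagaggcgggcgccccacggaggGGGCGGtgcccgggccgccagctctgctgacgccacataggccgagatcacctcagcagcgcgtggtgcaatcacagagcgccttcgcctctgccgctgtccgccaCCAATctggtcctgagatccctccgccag
Acss2, chr2:155517793-155518042, plus strand: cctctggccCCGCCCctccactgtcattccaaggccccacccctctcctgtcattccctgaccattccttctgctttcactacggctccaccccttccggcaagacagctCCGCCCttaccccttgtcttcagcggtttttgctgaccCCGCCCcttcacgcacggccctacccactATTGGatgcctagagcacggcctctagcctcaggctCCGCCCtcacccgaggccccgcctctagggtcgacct
Mvk, chr5:114444019-114444268, plus strand: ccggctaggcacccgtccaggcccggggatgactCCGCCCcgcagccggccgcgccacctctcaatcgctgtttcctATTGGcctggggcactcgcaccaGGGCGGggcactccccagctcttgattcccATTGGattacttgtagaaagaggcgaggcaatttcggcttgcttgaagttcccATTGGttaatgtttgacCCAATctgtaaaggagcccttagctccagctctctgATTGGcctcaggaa

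RefSeq promoters of 300 bases, from 250 before to 50 after the start, were found for 28 of the 35 genes, in 37 entries. Fdps, Fdft1, Sqle, Stard4, Scd1, Scd2 and Fads1 were not matched. The sterol response element form was in 1 of the 37 entries, that of Hmgcs1, at positions -137 to -129. Of all 32851 promoters 1.24% held it. Only these exact letters were searched, so an entry without a match may still hold another form of the element. The CCAAT box was in 24 of the 37 (64.9%), against 37.41% of all promoters, and the GC box in 28 (75.7%), against 35.66%. The E-box was in 6 (16.2%), among them that of Insig1 at -101 to -96, against 7.15%. Entries of a gene can overlap: those of Scap share the same E-box and a GC box. Counted by gene, the CCAAT box was in 23 of the 28 genes, the E-box in 5 and the GC box in 24. The shares of all promoters were counted by entry, so these gene counts have no matching share. All promoters were also not limited to genes measured here. The Mvk promoter printed above holds 5 CCAAT boxes.

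Most of the measured genes were lower in Meis1 deleted cells. In limma's fit over 11836 genes with Benjamini-Hochberg adjustment, 23 of the 31 fell, 1 rose and 7 did not pass. Of all genes tested, 17.5% fell and 18.1% rose. Since the members were chosen with earlier results of these data known, this contrast is not a test. The median log2 fold change, given throughout as Meis1 deleted minus Hoxa9 and Meis1, was -0.42 for the 31 genes and -0.00 for all genes tested. The largest falls were those of the desaturase Scd1 to 34.7% of the control level, the lanosterol demethylase Cyp51 to 47.4% and the acetyl-CoA synthetase Acss2 to 49.7%. Falls to under 66.7% of the control level, that is at least 1.5-fold, were called for 10 of the 31 genes and for 2.34% of all genes. All levels below are deposited log2 values, which were compared between groups for a gene and not between genes. In a mixed culture, fewer cells of a type and less RNA per cell cannot be told apart.

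**Figure D1:**
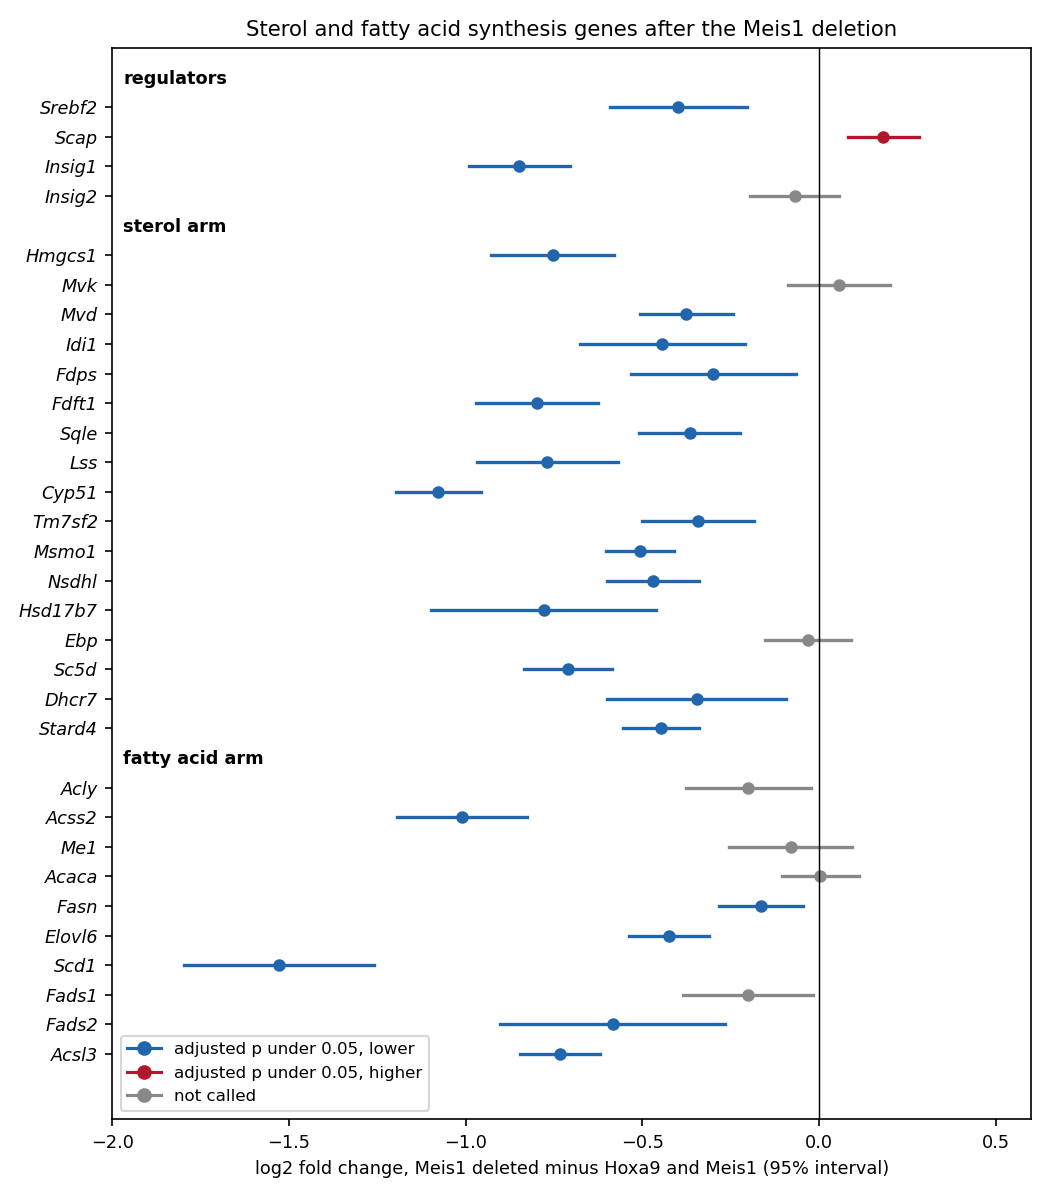
Log2 fold change (x axis, Meis1 deleted minus Hoxa9 and Meis1, 4 arrays per group) of the 31 measured genes (y axis) with limma's 95% interval as a bar, coloured by whether the adjusted p was under 0.05. Of the sterol arm 15 of 17 genes lie to the left and were called, and Scap is the only gene of the 31 called higher.

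Some facts on the arrays bear on every value below. Meis1 deleted replicate 1 stood apart: its Gapdh control read 0.72 higher at the 3′ than at the 5′ end on the log2 scale, against -0.07 to 0.04 on the other 7 arrays, and its Actb control read 0.67 against 0.32 to 0.38. Over the groups these differences did not separate (two-sided exact permutation test, p = 0.486 and p = 0.543; 4 controls tested, adjusted p = 0.686 for both). Of the other controls, Tfrc differed by 0.04 (exact permutation p = 0.686). Pcx differed most, by -0.29, at 0.02, -0.34, -0.28 and -0.25 on the Meis1 deleted arrays and 0.01 to 0.13 on the controls (exact permutation p = 0.0571, adjusted p = 0.229, where the smallest possible p is 0.0286). Its part in the results was not tested. That array was the farthest from the rest of its group in 66.0% of the 53 probe sets of the members and in 52.5% of all kept probe sets. Without it 15 sterol and 7 fatty acid genes were called lower. The arrays also fell into 2 sets by the bioB spike-in: Meis1 deleted replicates 1, 2 and 3 with Hoxa9 and Meis1 replicates 1 and 2 read low (4.04 to 4.28), and the other 3 arrays read high (6.43 to 6.61).

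All 8 myeloid markers (among them Mpo, Spi1 and Ptprc) passed the filter on low values. Of these 3 rose and 3 fell, with a log2 summed level of 14.47 to 14.50 in Meis1 deleted arrays and 14.49 in all controls. Markers of other types moved with the groups. All 9 macrophage markers tested rose (of 10 listed), with a summed level of 13.42 to 13.47 against 10.54 to 10.66, and 5 of 6 late neutrophil markers rose (13.43 to 13.52 against 12.38 to 12.45). Of the megakaryocyte list 1 of 3 tested genes, Pf4, rose (10.31 to 10.44 against 7.41 to 7.46), and of the mast or basophil list 1 of 2 rose and 1 fell (7.39 to 7.83 against 7.97 to 8.11). The part of these shifts in the results below was not tested. Of the erythroid markers 1 of 3, Epor, rose (7.01 to 7.06 against 6.88 to 6.98), and 0 of 3 lymphoid (7.11 to 7.34 against 7.22 to 7.30) and 0 of 1 stroma or endothelium markers (6.24 to 6.36 against 6.29 to 6.33) passed the test. Cd3g, Pax5, Cpa3, Mcpt4, Gp1bb, Cdh5, Col1a1, Col1a2 and Pdgfrb lay under the filter threshold of 4.29.

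The regulators went in both directions. Insig1, which is both a brake on SREBP and an SREBP target, read 9.95, 9.67, 9.73 and 9.74 in Meis1 deleted replicates 1 to 4 and 10.61, 10.65, 10.64 and 10.60 in Hoxa9 and Meis1 replicates 1 to 4. The groups did not overlap, and Insig1 fell by 0.85 ± 0.06 (SE; limma adjusted p = 7.48e-06). Srebf2, which encodes the SREBP that mainly drives sterol genes, read 8.07, 7.79, 7.64 and 7.72 after the deletion and 8.16, 8.19, 8.20 and 8.26 in controls. Every deleted array was below every control array, replicate 1 by the least, and Srebf2 fell by 0.40 ± 0.09 (limma adjusted p = 0.00586). Its other probe set, which varied less, fell by 0.23 ± 0.04. Scap, the escort of the SREBPs, read 8.49, 8.48, 8.41 and 8.44 against 8.34, 8.26, 8.24 and 8.25. It rose by 0.18 ± 0.05 (adjusted p = 0.0115), a change in the opposite direction with no overlap. Insig2, the relative of Insig1, did not pass: its 3 kept probe sets read -0.07, 0.11 and 0.10, and the interval of the first ran from -0.20 to 0.06.

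In the sterol arm 15 of 17 measured genes fell and 0 rose, also with an unadjusted limma p under 0.05, with a median of -0.45. The median of the arm on each array, set against the control mean of each gene, was between -0.50 and -0.48 on the 4 deleted arrays and between -0.04 and 0.05 on the controls. In 14 of the 17 genes every deleted array was below every control array, a pattern seen in 18.9% of all genes tested (the reverse pattern, shown by Scap, was seen in 19.7%).

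Of the mevalonate and isoprenoid steps, 4 of 5 measured genes fell. Hmgcs1, the synthase that makes HMG-CoA, read 5.34, 5.01, 5.23 and 5.05 after the deletion and 5.99, 5.86, 5.88 and 5.92 in controls. The groups lay well apart and Hmgcs1 fell by 0.75 ± 0.08 (adjusted p = 6.56e-05), although both groups read lower than the median kept probe set (6.42). With 64 added to the linear values before the logarithm, which shrinks changes at low levels, its log2 fold change was -0.32. Mvd, which makes isopentenyl diphosphate, fell by 0.37 ± 0.06, and Idi1, which isomerises it, fell by 0.44 ± 0.10 by its probe set with the highest mean and by 0.72 ± 0.07 by the other. Fdps, the farnesyl diphosphate synthase, read 10.89, 11.32, 11.30 and 11.37 against 11.46, 11.42, 11.57 and 11.61. It passed narrowly (-0.30 ± 0.10, adjusted p = 0.0492), with replicate 1 far below the rest. Without that array its log2 fold change was -0.19 (adjusted p = 0.0247), and without Meis1 deleted replicate 2 or 3 or any 1 of the 4 controls the call was lost (adjusted p = 0.0604 to 0.122). Mvk, the mevalonate kinase, read 7.30, 7.46, 7.35 and 7.18 against 7.23, 7.28, 7.32 and 7.24. Its groups overlapped, and its log2 fold change of 0.06 had an interval from -0.09 to 0.20 (adjusted p = 0.544).

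All 3 genes of the squalene and lanosterol steps fell. Fdft1, the squalene synthase, read 8.48, 8.83, 8.82 and 8.71 after the deletion and 9.50, 9.56, 9.50 and 9.48 in controls. It fell by 0.80 ± 0.08 (adjusted p = 4.08e-05), to 57.5% of the control level, with a wide gap between the groups. Sqle, the squalene epoxidase and a main control point of the pathway, read 9.88, 9.61, 9.69 and 9.65 against 10.09, 10.11, 10.03 and 10.05 and fell by 0.37 ± 0.06 (adjusted p = 0.00171). Lss, which closes the sterol rings, read 6.15, 5.72, 5.91 and 5.94 against 6.68, 6.71, 6.60 and 6.81. Lss fell by 0.77 ± 0.09 (adjusted p = 1.36e-04), but with 64 added to the linear values its log2 fold change was -0.42 while that of Fdft1 was -0.71. Replicate 1 read the highest of the deleted arrays for Lss and Sqle but the lowest for Fdft1.

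Of the steps after lanosterol, 7 of 8 genes fell. Cyp51, which removes a methyl group from lanosterol, read 9.02, 9.00, 8.93 and 9.09 after the deletion and 10.02, 10.04, 10.13 and 10.14 in controls. The fall of 1.08 ± 0.05 (adjusted p = 4.38e-07) was the largest of the sterol arm, and its other probe sets fell by 1.26 ± 0.05 and by 0.73 ± 0.12. Sc5d, the lathosterol desaturase, read 9.83, 10.04, 10.01 and 9.96 against 10.67, 10.65, 10.64 and 10.72 and fell by 0.71 ± 0.06 (adjusted p = 9.89e-06). A second Sc5d probe set fell by 0.86 ± 0.10, while the remaining one, between 5.18 and 5.60 on all arrays, read -0.02 ± 0.09. Msmo1 and Nsdhl, which act in the removal of the next methyl groups, fell by 0.51 ± 0.04 and by 0.47 ± 0.06. Hsd17b7, the reductase of that step, fell by 0.78 ± 0.14, with replicate 1 at 7.52 and the other deleted arrays between 8.03 and 8.19. By its second probe set, on which replicate 1 did not stand apart, Hsd17b7 fell by 0.61 ± 0.06. Tm7sf2, a sterol reductase, fell by 0.34 ± 0.07.

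The last steps were less uniform. Dhcr7, which makes cholesterol from its direct precursor, read 8.40, 7.93, 7.92 and 7.99 against 8.33, 8.29, 8.42 and 8.58. Replicate 1 lay among the controls, and Dhcr7 fell by 0.35 ± 0.11 (adjusted p = 0.0391). Without replicate 1 the fall was larger (-0.46, adjusted p = 8.54e-04). The call was lost without Meis1 deleted replicate 2, 3 or 4 or Hoxa9 and Meis1 replicate 1, 3 or 4 (adjusted p = 0.0590 to 0.106). Ebp, a sterol isomerase, read 9.42, 9.51, 9.52 and 9.59 against 9.47, 9.50, 9.60 and 9.60. Its groups overlapped, with replicate 1 below every control, and Ebp did not pass (-0.03, interval -0.15 to 0.09, adjusted p = 0.701). Stard4, which carries cholesterol through the cytosol, fell by 0.45 ± 0.05, and by 0.61 and 0.70 by its other probe sets.

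**Figure D2:**
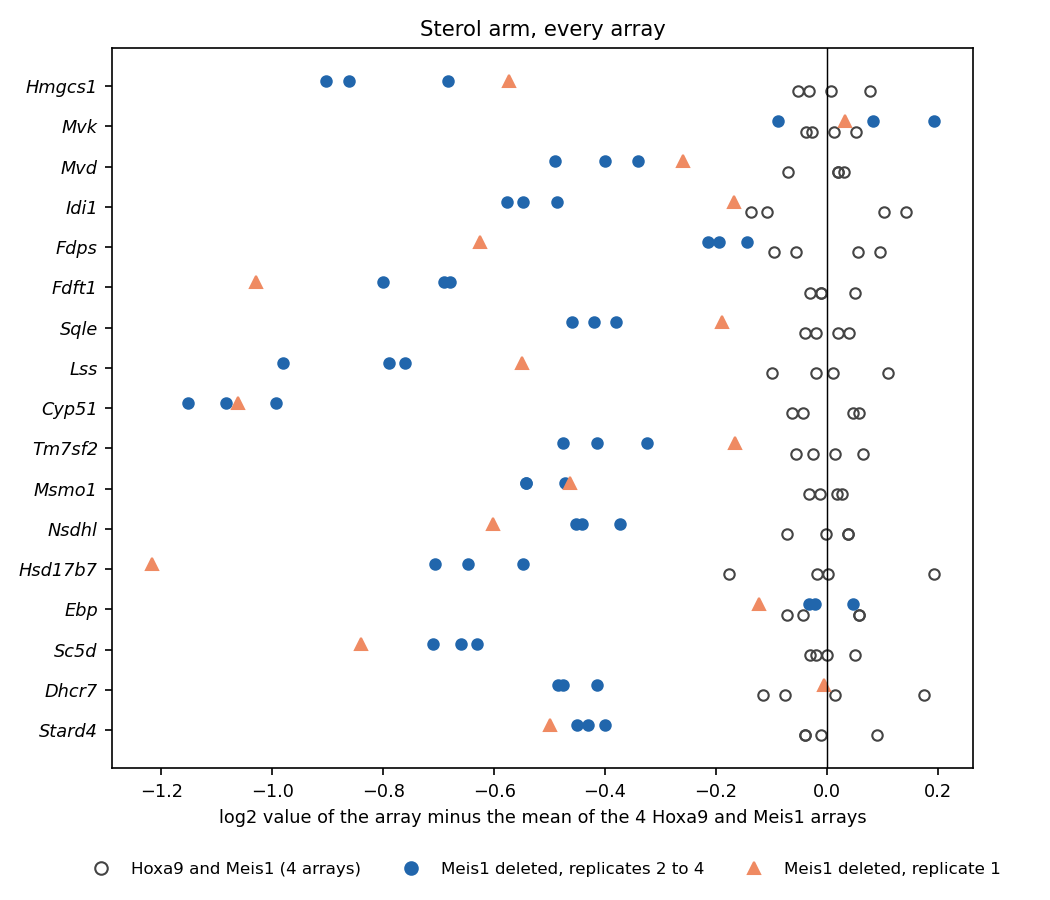
Every array of the 17 measured sterol arm genes (y axis), as its log2 value minus the mean of the 4 Hoxa9 and Meis1 arrays (x axis); open circles are controls, blue circles Meis1 deleted replicates 2 to 4 and triangles Meis1 deleted replicate 1. Mvk and Ebp overlap with the controls, and for Dhcr7 the triangle alone lies among them.

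The fatty acid arm changed less evenly. Of 10 measured genes 6 fell and 0 rose, and with an unadjusted limma p under 0.05 the counts were 8 and 0. The median was -0.31. The arm's median relative to controls was -0.15 on Meis1 deleted replicate 1 and between -0.37 and -0.35 on the other 3, against -0.03 to 0.03 on the controls. In 5 of the 10 genes the groups did not overlap, all 5 lower.

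Desaturation held the largest change. Scd1, which makes oleic from stearic acid, read 8.03, 7.61, 7.51 and 7.42 after the deletion and 9.24, 9.21, 9.10 and 9.14 in controls. It fell by 1.53 ± 0.12 (adjusted p = 1.04e-05), with more than a log2 unit between the highest deleted and the lowest control array. Its dimmer probe set fell by 0.81 ± 0.08. Fads2, the first desaturase of polyunsaturated fatty acids, read 8.29, 7.61, 7.69 and 7.59 against 8.40, 8.42, 8.41 and 8.29. Replicate 1 equalled the lowest control to 2 decimals, and Fads2 fell by 0.58 ± 0.14 (adjusted p = 0.0106), or by 0.75 without that array. Both other Fads2 probe sets fell, by 0.65 ± 0.08 and by 0.70 ± 0.10. Fads1, the next desaturase, had overlapping groups (8.52 to 8.80 against 8.74 to 8.98) and did not pass (-0.20 ± 0.08, adjusted p = 0.0881). Without Meis1 deleted replicate 1 Fads1 read -0.25 and passed (adjusted p = 0.0301). It also passed with array weights (-0.26, adjusted p = 0.0131) and with probe sets averaged (-0.22, 0.0462).

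Of the genes that supply acetyl-CoA and NADPH, 1 of 3 was called. Acss2, which makes it from acetate, read 7.04, 6.70, 6.68 and 6.84 after the deletion and 7.82, 7.74, 7.92 and 7.83 in controls. It fell by 1.01 ± 0.08 (adjusted p = 1.32e-05) with no overlap, and by 0.95 ± 0.07 by its other probe set. Acly, which makes acetyl-CoA from citrate, read 10.98, 10.62, 10.63 and 10.72 against 10.91, 10.91, 10.97 and 10.97. Replicate 1 lay above all controls, and Acly did not pass (-0.20 ± 0.08, adjusted p = 0.0772). It passed without that array (-0.28, adjusted p = 0.00113), with array weights (-0.28, 0.0013), with probe sets averaged (-0.35, 0.00013) and with limma's trend and robust settings (-0.20, 0.0496). Its other probe set fell by 0.49 ± 0.11, on which replicate 1 was the lowest. Me1, the malic enzyme that supplies NADPH, read 4.43 to 4.70 against 4.55 to 4.80, not far above the filter threshold of 4.29, and did not pass (-0.08 ± 0.08, adjusted p = 0.461).

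The 2 core enzymes of fatty acid synthesis moved little. Acaca, the acetyl-CoA carboxylase, read 8.12, 8.22, 8.12 and 8.24 against 8.18, 8.12, 8.19 and 8.20, with a log2 fold change of 0.00 and an interval from -0.11 to 0.11 (adjusted p = 0.954). Fasn, the fatty acid synthase, read 9.41, 9.49, 9.42 and 9.55 against 9.54, 9.63, 9.70 and 9.65. Its groups overlapped by a single pair of arrays, and it fell by 0.16 ± 0.05 (adjusted p = 0.0387). That call was lost without Meis1 deleted replicate 1, 2 or 3 or Hoxa9 and Meis1 replicate 2, 3 or 4 (adjusted p = 0.0588 to 0.108). Elovl6, which lengthens palmitic acid, read 8.77, 8.79, 8.72 and 8.67 against 9.25, 9.13, 9.13 and 9.13. It fell by 0.42 ± 0.05 (adjusted p = 1.67e-04), and by 0.43 ± 0.08 by a second probe set. Acsl3, which activates fatty acids for lipid droplets, read 8.13, 8.28, 8.26 and 8.30 against 8.97, 8.94, 9.00 and 8.99. Its fall of 0.73 ± 0.05 (adjusted p = 4.09e-06) had the smallest adjusted p of the fatty acid arm.

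**Figure D3:**
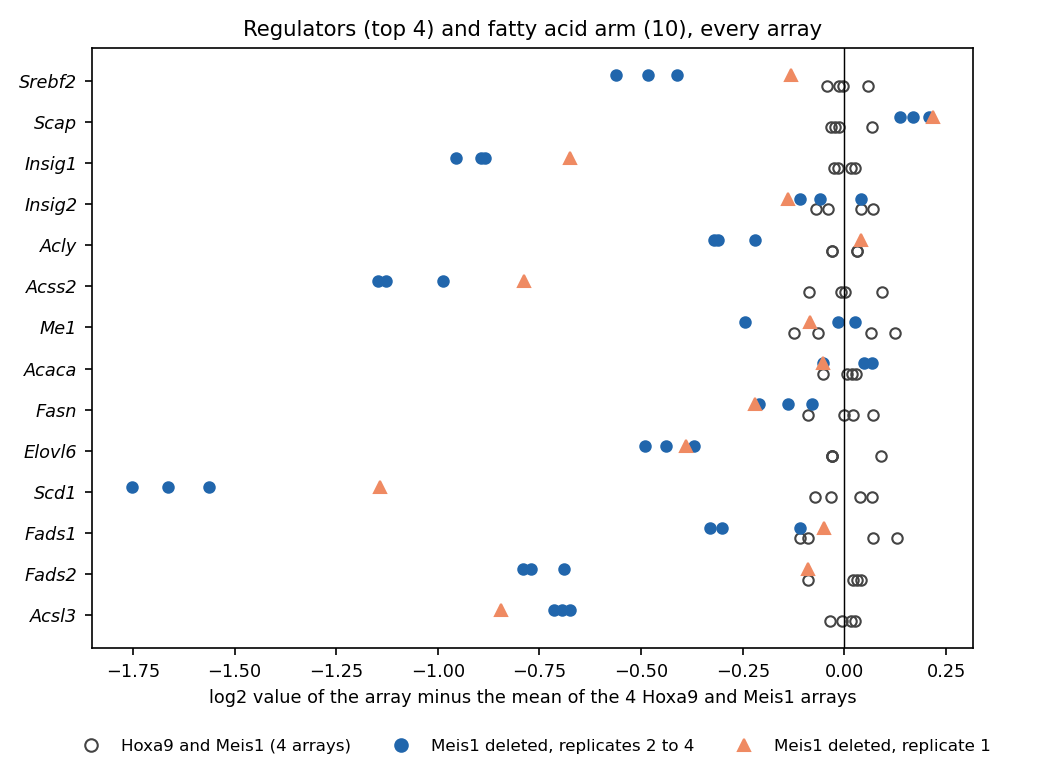
Every array of the 4 measured regulators and the 10 measured fatty acid arm genes (y axis), as its log2 value minus the mean of the 4 Hoxa9 and Meis1 arrays (x axis), with symbols for controls (open), Meis1 deleted replicates 2 to 4 (blue) and Meis1 deleted replicate 1 (triangle). Scd1 and Acss2 lie farthest to the left, and for Acly and Fads2 the triangle lies at the controls.

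The sets of arrays split by the bioB spike-in were used as a block over all arrays, and each set was also fitted apart. With the set as a block, 13 sterol and 7 fatty acid genes were called lower. The calls of Dhcr7 (adjusted p = 0.0722) and Fdps (0.0773) were lost while Me1 gained one (-0.13, adjusted p = 0.0499). Within a set, fewer arrays were tested. Among the 5 arrays with low bioB, 11 sterol and 4 fatty acid genes were called lower. The calls lost there were those of Srebf2 (-0.34, adjusted p = 0.145), Scap (0.16, 0.155), Idi1 (-0.31, 0.201), Fdps (-0.27, 0.265), Tm7sf2 (-0.30, 0.113), Dhcr7 (-0.23, 0.398), Fasn (-0.15, 0.186) and Fads2 (-0.55, 0.148). Among the 3 arrays with high bioB, where the spread came from the 2 controls and the lone deleted array was assumed to vary like them, 14 sterol and 5 fatty acid genes were called lower, and Scap (0.19, 0.116), Fdps (-0.23, 0.0925) and Fasn (-0.12, 0.270) did not pass.

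Probe sets of a gene mostly gave the same direction. Of the 53 kept probe sets 38 fell and 1 rose, where 17.1% of all 27022 kept probe sets fell and 14.2% rose. Among 17 genes with several kept probe sets, all probe sets fell in 11, none was called in 4 (Insig2, Mvk, Acaca and Fads1), and some but not all fell in Acly and Sc5d. The size differed more than the direction, as for Scd1 (-1.53 and -0.81) and Idi1 (-0.44 and -0.72). Mvk's second probe set read -0.33 ± 0.14 and did not pass (limma adjusted p over probe sets = 0.124).

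**Figure D4:**
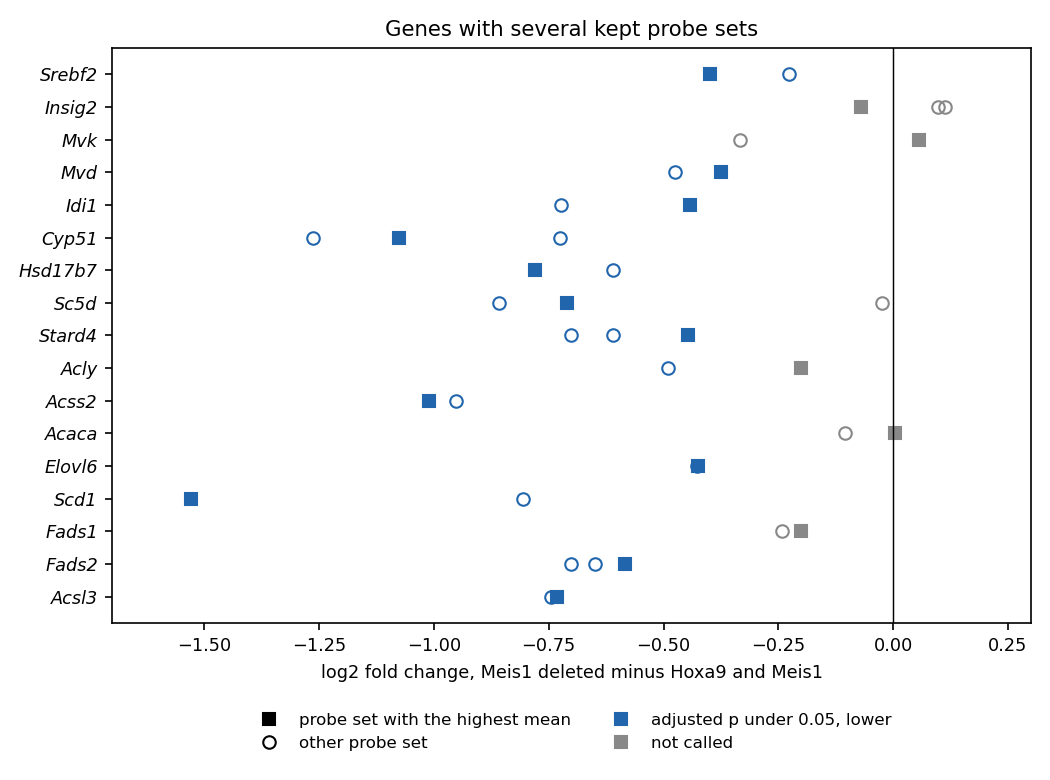
Log2 fold change (x axis) of each kept probe set of the 17 genes with several (y axis); filled squares are the probe sets with the highest mean, which stand for the gene, open circles the others, and blue marks an adjusted p under 0.05. Cyp51, Scd1 and Sc5d show the widest spread between probe sets of a called gene.

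Other lipid genes were grouped in 7 lists by function, with medians between -0.11 and 0.15. Their counts are to be read against the 17.5% of all genes tested that fell and the 18.1% that rose, and counts near these shares are no result about a list. Among other genes of sterol synthesis and transport, 1 of 9 tested fell and 3 rose, with a median of -0.02. Tmem97, a regulator of cholesterol transport through Npc1, fell by 0.30, while the sterol carriers Stard3 (0.50 ± 0.06) and Stard5 (0.38 ± 0.07) and the oxysterol-binding relative Osbpl8 (0.26 ± 0.08) rose. In a list drawn up for the movement, cleavage and turnover of SREBP, 12 genes were tested, of which 4 fell and 0 rose by limma. At an unadjusted limma p under 0.05, 5 fell and 1 rose, and the median was -0.09. The 4 called were the coat proteins Sec24d (-0.43 ± 0.05) and Sec23a (-0.25 ± 0.05), the ubiquitin ligase Rnf139 (-0.15 ± 0.05) and Ubxn8 (-0.33 ± 0.10). The place of Ubxn8 in this list is uncertain, since a role in SREBP, Scap or Insig turnover is not established for it. The proteases that cut SREBP did not pass: Mbtps1 read -0.18 and Mbtps2 0.04. In the isoprenoid branch 1 of 13 fell, Rabggta, a subunit of the transferase that prenylates Rab proteins (-0.57 ± 0.06), and 3 rose: Pdss2 (0.29 ± 0.06) and Coq2 (0.23 ± 0.05), which act in ubiquinone synthesis, and the prenyl protein protease Zmpste24 (0.25 ± 0.05).

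A list of sterol release, efflux and storage genes also held others, such as nuclear receptors and Mylip. Of its 9 tested genes 5 rose and 0 fell by limma, with a median of 0.15. At an unadjusted limma p under 0.05, 6 rose and 0 fell. Lipa, which frees cholesterol in lysosomes, read 8.84 ± 0.08 (SD, n = 4) in controls and 10.11 ± 0.05 after the deletion (1.26 ± 0.05, adjusted p = 1.35e-07). Npc1, which exports that cholesterol from the lysosome, rose by 1.03 ± 0.07, the sterol exporter Abcg1 by 0.86 ± 0.05 and Mylip, which degrades lipoprotein receptors, by 0.45 ± 0.07. The nuclear receptor Nr1h3, which drives Abcg1 and Mylip, did not pass (0.08). These rises stood beside the rise of the macrophage markers given above.

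In the other genes of fatty acid elongation and activation 2 of 19 fell and 5 rose, with a median of 0.00. The citrate carrier Slc25a1 fell by 0.45. Hacd4, a dehydratase of the elongation cycle, rose by 1.27 ± 0.06, and the mitochondrial fatty acid synthesis genes Mcat (0.34 ± 0.08) and Mecr (0.24 ± 0.05) rose.

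**Figure D5:**
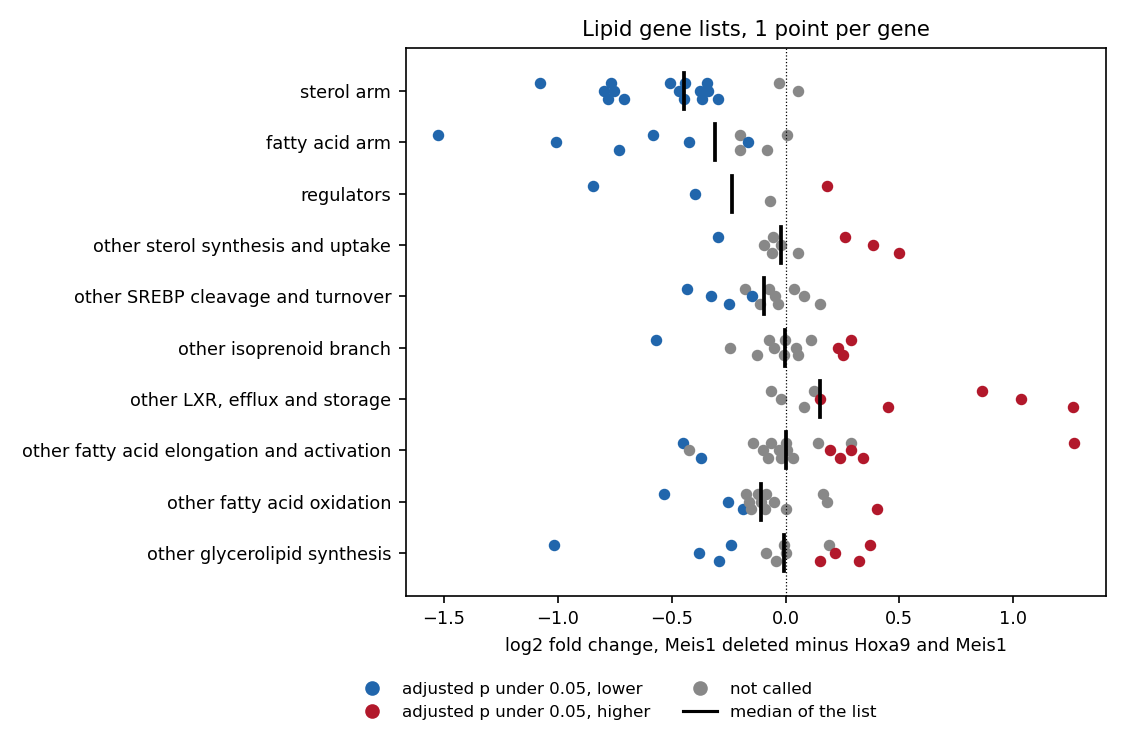
Log2 fold change (x axis) of every tested gene in the 3 groups described here and in 7 other lipid lists (y axis), 1 point per gene, coloured by whether the adjusted p was under 0.05, with the median of each list as a black line. The medians are -0.45 for the sterol arm, -0.31 for the fatty acid arm and -0.23 for the regulators. The list with the efflux and storage genes has a median of 0.15, and the others lie between -0.11 and 0.00.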

How the data were processed

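Expression was measured on 1-colour Affymetrix arrays from 100 ng of total RNA each, 4 arrays per group. The table deposited by the authors was read as log2 values from its range of 2.65 to 13.22. Array medians were close (4.69 to 4.74), but how the authors summarised and normalized the values is unstated. The submitters' processing notes name MAS5 without a role. The number of arrays limits the precision.

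Probe sets were named from GEO's platform annotation, in which 28898 had 1 symbol, 551 several and 15588 none, besides 104 controls. RefSeq identifiers changed 0 symbols. The lowest 40% of probe sets by mean (below 4.29) were left out. Differences were tested with limma 3.58.1 in R 4.3.3, with variances moderated over all 27022 kept probe sets. A gene stood by its kept probe set with the highest mean, and p was adjusted over 11836 genes, called under 0.05. Errors are limma's standard errors (SE) unless marked SD. For probe sets that do not stand for a gene, the SE came from a fit without the filter, over all 45037 probe sets that are not controls. The steps were tested on simulated data. Plots were made in Python 3.11.15 (matplotlib 3.10.9).

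The members and lists were chosen with earlier results of these data known. All 35 members are named, and of the other lists the called genes with the 4 smallest p. Mbtps1, Mbtps2 and Nr1h3 were named after their values were seen. Alternatives covered offsets of 1 and 64, normalization, the filter, probe set choice, eBayes settings, array weights, the replicate number, the bioB sets and each array left out.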

Additional observations from a re-analysis of the deposited data

Results flagged for a closer look

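Of 62 groups of 4 arrays examined for the 31 genes, 6 held an array whose gap to the next was large against the range of the 4 (Dixon's ratio). Such a gap can be small in log2 units, as for Mvd and Elovl6 below. Chance alone gives about 1 in 20 groups if groups are independent. These groups share the same arrays, so the count cannot be read as an excess. In 3 of the 6 the array was Meis1 deleted replicate 1, which had the largest 3′ to 5′ difference of the Gapdh and Actb controls. It read 10.89 for Fdps (others 11.30 to 11.37), 8.40 for Dhcr7 (others 7.92 to 7.99) and 8.29 for Fads2 (others 7.59 to 7.69), so it stood below the rest for 1 gene and above for 2. The part of RNA quality in these values was not tested. Among the controls, Hoxa9 and Meis1 replicate 1 read 7.89 for Mvd (others 7.98 to 7.99) and 9.25 for Elovl6 (others 9.13), and replicate 4 read 8.29 for Fads2 (others 8.40 to 8.42). Of the 53 kept probe sets, 9 were higher by at least 0.3 on the log2 scale in Meis1 deleted replicate 1 than in the mean of the other 3, and 10 were lower by as much, with Fads2 (0.66) and Stard4 (-0.77) at the ends.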

How the results depend on the processing

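Over 22 alternatives, 16 of the 24 called genes kept their call and sign in every one, 0 of the 24 changed sign, and 8 lost the call in at least 1 (Srebf2, Scap, Idi1, Fdps, Tm7sf2, Dhcr7, Fasn and Fads2). The same 16 genes kept their call over the 21 alternatives other than the fit to the high bioB arrays, which hold 1 deleted array. The number of sterol genes called lower was 11 to 15 and that of fatty acid genes 4 to 8, with 0 fatty acid genes higher throughout. The sterol median of -0.45 was -0.41 with an offset of 64, -0.51 with probe sets averaged per gene, -0.51 among the high bioB arrays, and -0.49 to -0.42 with an array left out. The fatty acid median was -0.42 with the lowest 60% left out, where Me1 was not tested. The total of 4206 genes called was 2114 and 2158 within the low and high bioB arrays, and that of 8450 probe sets was 3812 and 4362, with fewer arrays tested. Of the genes that did not pass, Acaca turned sign with quantile normalization (-0.0047), a common 75th percentile (-0.0021), the mean of probe sets (-0.0497), and without Meis1 deleted replicate 2 or 4 or Hoxa9 and Meis1 replicate 2 (-0.0174 to 0.0239 over all arrays left out in turn). Mvk turned sign with the mean of probe sets (-0.14) and among the high bioB arrays (-0.10), Insig2 with the mean of probe sets (0.0470) and Ebp among the low bioB arrays (0.0026); the cause was not tested. Same-numbered arrays did not all vary together (correlations of -0.10, 0.28, -0.14 and 0.21 for replicates 1 to 4). The labels do not state whether they were paired, and these correlations cannot settle it. With the replicate block 3906 genes were called, 14 sterol and 5 fatty acid genes were lower, and the calls of Dhcr7 and Fasn were lost (adjusted p = 0.0600 and 0.0599). Variances moderated over genes alone were an alternative chosen after seeing the data. Values near the filter threshold, such as those of Me1, limit what a fold change can show.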

Other observations

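The counts of called genes in these small lists are to be read against the 17.5% of all genes tested that fell and the 18.1% that rose. Of 13 glycerolipid synthesis genes tested, 4 fell and 4 rose, with a median of -0.01. Dgat1, which makes the last step to triglyceride, fell by 1.02 (limma adjusted p = 8.81e-07), from 9.28 ± 0.03 (SD, n = 4) to 8.27 ± 0.10, and its unrelated counterpart Dgat2 fell by 0.24. Plin2, a coat protein of lipid droplets, rose by 0.32 ± 0.04 (SE) and Cept1, which makes phosphatidylcholine and phosphatidylethanolamine, by 0.37 ± 0.04.

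Of 15 fatty acid oxidation genes tested, 3 fell and 1 rose, with a median of -0.11. Echs1, the enoyl-CoA hydratase, fell by 0.53, the dehydrogenase Acadl by 0.25 and the electron carrier gene Etfdh by 0.19. Cpt2, of the mitochondrial carnitine shuttle, rose by 0.40 ± 0.08.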
